A study of Mus musculus with 6 samples.

Results

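Transcripts of 10 genes of monocytes, macrophages and antigen presentation were followed across early blood-forming cells of the mouse bone marrow. The genes were chosen by name: Cd74, H2-Aa, H2-Ab1, H2-Eb1 and Ctss of class II antigen presentation, and Lyz2, Ccr2, Csf1r, Igsf6 and Ccl4 of monocytes, macrophages and their chemokines. Earlier results of these data were known when they were chosen. All 10 are among the 23538 genes of the deposited tables, each on a single line. The study compared wild-type mice with mice heterozygous for Mof (Mof -/+; gene symbol Kat8), a lysine acetyltransferase of histone H4. Sorts of 15 cells were taken from 6 populations. HSC are haematopoietic stem cells, and MPP2, MPP3 and MPP4 are multipotent progenitors. CMP stands for common myeloid progenitors, and MEP for the precursors of megakaryocytes and red cells. Per the labels, HSC and MPP cells are lineage-negative, Sca-1-positive and cKit-positive, and CMP and MEP are lineage-negative, Sca-1-negative and cKit-positive. Flt3 and CD150 staining set the MPP populations apart. Each of the 12 groups has 3 libraries, 36 in all. The labels name neither age, promoter nor any other allele or treatment, and they do not say which part of Mof the allele lacks. They do not say that the libraries came from separate animals either, so a p-value here speaks of the variation among libraries alone, part or all of which may be technical.

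Class II molecules are pairs of an alpha and a beta chain that present peptides from the endosome to helper T cells. H2-Aa and H2-Ab1 encode the chains of I-A, and H2-Eb1 the beta chain of I-E. Cd74, the invariant chain, fills their groove until it is trimmed by proteases such as cathepsin S (Ctss), and H2-DM then loads the peptide. B cells, dendritic cells and activated macrophages are known for high levels of these transcripts. Csf1r is the receptor for CSF1 and IL-34, on which most macrophages depend, and Ccr2 is the chemokine receptor that lets Ly6C-high monocytes leave the marrow. Lyz2 encodes the lysozyme of monocytes, macrophages and granulocytes, Igsf6 a surface protein of the immunoglobulin superfamily found on myeloid and dendritic cells, and Ccl4 the chemokine MIP-1 beta.

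Totals ran from 1577 to 123765 counts per library, and levels are given as CPM, a library's counts scaled to a total of 1000000. A single count is worth 8.08 CPM in the deepest library and 634 CPM in the shallowest. Below, shallow libraries means the 6 with fewer than 13000 counts: the whole wild-type MPP2 group, replicates 1 and 2 of wild-type MPP3, and replicate 2 of heterozygous HSC. Without them wild-type MPP2 is missing and wild-type MPP3 is a single library, whose variation limma takes from the other groups. Kat8 itself gave 12 counts in the 18 wild-type libraries and 11 in the 18 heterozygous ones, with at most 4 in any library, too few to check the genotype. The libraries were sequenced in 6 pools, each of 1 genotype, so genotype and pool cannot be told apart. By the column names HSC are alone in a pool in each genotype (for heterozygous HSC, by header names taken in order). MPP2, MPP3 and MPP4 share a pool within each genotype, and so do CMP and MEP. A contrast of 1 population with the mean of the other 5 therefore crosses pools. In HSC of both genotypes population and pool cannot be told apart. Some libraries stand apart from their group in markers of other cells. Markers of stem and progenitor cells summed to 0 of 7304 counts in wild-type MPP3 replicate 1, and to 393 CPM in wild-type HSC replicate 3 against 3369 and 2422 in the other wild-type HSC libraries. In 7 libraries the markers of mature neutrophils summed to over 10000 CPM, up to 33661 in wild-type MEP replicate 2. In these bulk libraries fewer cells of a type and less RNA per cell cannot be told apart.

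Promoter sequence was at hand for 6 of the 10 genes (RefSeq, build GRCm38.p6) and not for Cd74, H2-Ab1, Csf1r and Ccl4. Class II promoters are known for a Y box, which binds the factor NF-Y, close to the start site. The 7 letters CCAATCA were searched on both strands in windows from 250 bases before to 50 bases after the start. Among all 32851 promoter windows of the table, 7.82% hold them. They were found in H2-Aa and H2-Eb1, on the reverse strand as TGATTGG, and in neither Ctss, Igsf6, Ccr2 nor Lyz2. H2-DMb1, which encodes a chain of the peptide loader H2-DM, also holds them, and neither of the 2 windows of H2-DMa, the gene of its partner chain, does. The 120 bases before each start are shown because these 3 genes share the motif, which is in capitals. H2-Aa lies on the minus strand (chr17:34287824-34287943) and the others on the plus strand (H2-Eb1 at chr17:34305747-34305866, H2-DMb1 at chr17:34153071-34153190).
H2-Aa: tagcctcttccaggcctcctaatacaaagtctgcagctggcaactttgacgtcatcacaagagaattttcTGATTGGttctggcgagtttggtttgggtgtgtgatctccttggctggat
H2-Eb1: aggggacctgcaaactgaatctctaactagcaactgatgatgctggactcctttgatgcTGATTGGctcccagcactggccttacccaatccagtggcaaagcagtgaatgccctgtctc
H2-DMb1: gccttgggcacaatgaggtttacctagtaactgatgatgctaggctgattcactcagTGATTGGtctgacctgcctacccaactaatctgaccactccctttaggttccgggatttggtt
The motif begins 50 bases before the start in H2-Aa, 61 in H2-Eb1 and 63 in H2-DMb1. A match describes the letters and not binding. The shorter core CCAAT, which is part of the 7 letters and was found in 37.4% of windows, stands a second time in H2-Eb1, on the forward strand and 35 bases before the start. The letters GGAAGT, a core that the myeloid factor PU.1 can bind, stand in 23.8% of windows. On the reverse strand they begin 100 bases before the start of Lyz2 and 2 bases before that of Ctss.

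The 4 class II genes Cd74, H2-Aa, H2-Ab1 and H2-Eb1 were counted 1184 times in all, and these counts were uneven between libraries of the same group. In wild-type HSC, Cd74 gave 0, 4 and 36 counts in the 3 libraries, or 0, 114 and 1178 CPM, so that 36 of its 40 counts came from replicate 3. In wild-type MEP the counts were 1, 80 and 0 (17.6, 2286 and 0 CPM), and in heterozygous MEP 0, 45 and 0 (0, 599 and 0 CPM). A single library thus carried nearly all Cd74 in each of these groups. In MPP4 Cd74 was counted in all 6 libraries, at 26.1, 315 and 2162 CPM in wild type and 152, 1346 and 220 CPM in heterozygous cells. The wild-type MPP2 libraries stood at 290, 810 and 1771 CPM and the heterozygous ones at 176, 364 and 72.4 CPM. In MPP3 the wild-type libraries held 274, 0 and 0 CPM of Cd74 and the heterozygous ones 715, 25.0 and 27.9 CPM, with 1 high library in each. A single count is worth 137 CPM in that wild-type library. Replicate numbers are not shared between the genotypes. CMP was at the low end, with 1, 2 and 2 counts in wild type (at most 26.4 CPM) and 0 counts in 274512 in heterozygous cells, which allows up to 10.9 CPM.

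In HSC, MPP4 and MEP of both genotypes and in heterozygous MPP3 the library highest in Cd74 was also the highest in each of the 3 chains. In MPP2 and CMP of both genotypes and in wild-type MPP3 that was not so. H2-Aa in wild-type MPP3 gave 1, 1 and 2 counts (137, 362 and 96.0 CPM), highest in a library without Cd74, and in heterozygous CMP, where Cd74 had no count, H2-Ab1 gave 4, 1 and 3. In wild-type HSC, H2-Aa gave 0, 4 and 20 counts, H2-Ab1 0, 4 and 22 and H2-Eb1 0, 2 and 15. In wild-type MEP replicate 2 they reached 1200, 914 and 629 CPM, and in the other 2 libraries no chain was above 39.1 CPM. In wild-type MPP4 H2-Aa stood at 0, 734 and 2439 CPM, H2-Ab1 at 235, 472 and 776 CPM and H2-Eb1 at 0, 551 and 1330 CPM. Heterozygous MPP4 held 59.0, 646 and 195 CPM of H2-Aa, 101, 449 and 293 CPM of H2-Ab1 and 42.2, 485 and 244 CPM of H2-Eb1. Both genotypes overlapped in MPP4 for each chain. Heterozygous MPP3 replicate 1, with 460 CPM of H2-Aa and 306 CPM of H2-Ab1, was again above the other 2 libraries of its group. Over the 12 groups, the genes whose pooled level was most like that of Cd74 were H2-Ab1 (Spearman's rho 0.965), H2-Eb1 (0.930), H2-Aa (0.916), Fam53b (0.888) and Foxo1 (0.881), among 3547 genes with at least 100 counts. These rhos describe 12 points that share libraries and depth. Summed over the 4 genes, wild-type MPP4 replicate 3 held 6707 CPM, wild-type MEP replicate 2 5029 CPM, wild-type MPP2 replicate 3 3630 CPM and wild-type HSC replicate 3 3042 CPM. The 8 libraries of highest sum held 69.8% of the class II counts and 15.6% of all counts.

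**Figure D1:**
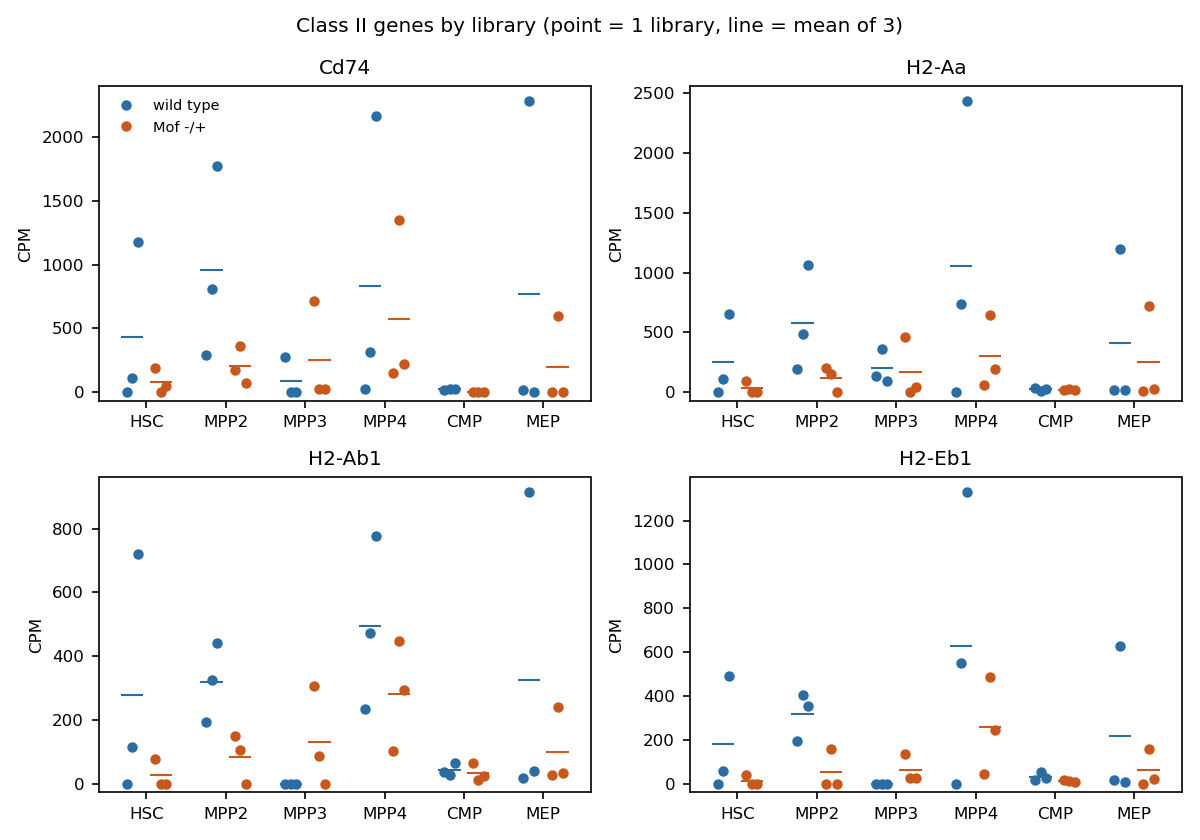
Levels of Cd74, H2-Aa, H2-Ab1 and H2-Eb1 in CPM (vertical axis) in each population (horizontal axis). Each point is 1 library, wild type in blue and Mof -/+ in orange, and each line is the mean of 3 libraries. Cd74 in MEP is carried by 1 library in each genotype, at 2286 and 599 CPM, and Cd74 in CMP stays at or below 26.4 CPM.

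Markers of other cells moved with the class II sum in part of the libraries. In wild-type HSC the 10 B cell markers found in the tables (Cd79a, Cd79b and others) summed to 103, 570 and 4089 CPM, in the order of the class II sum of 0, 399 and 3042 CPM, and all 10 were counted in replicate 3. In wild-type MPP2 the B cell markers summed to 1646, 2350 and 4338 CPM, beside class II sums of 871, 2026 and 3630 CPM. In wild-type MPP4 they summed to 1097, 1888 and 2938 CPM, beside 261, 2071 and 6707 CPM. Both groups thus shared the order, while heterozygous MPP2 did not (805, 676 and 507 CPM beside 528, 780 and 72.4 CPM). Over the 36 libraries the B cell sum ran from 0 to 4338 CPM with a median of 526. Elsewhere B cell markers were high beside less class II: wild-type MPP3 replicate 1 held 2464 CPM of them and 411 CPM of class II. In heterozygous MPP4 every library held at least 1902 CPM of B cell markers, with class II sums of 354, 2925 and 951 CPM. Wild-type MPP4 replicate 3, the library highest in class II at 6707 CPM, held 33592 CPM of neutrophil markers. The other 2 libraries of that group held 209 and 472 CPM of them. Wild-type MEP replicate 2, with 5029 CPM of class II, held 2343 CPM of B cell markers and 33661 CPM of neutrophil markers. Heterozygous MEP replicate 2 differed: its class II sum was 1718 CPM, its B cell sum 13.3 CPM, and its 10 conventional dendritic markers summed to 1571 CPM against 181 and 319 CPM in the other 2 libraries of its group. Most of that sum was Cst3, with 105 counts. The macrophage markers Mertk, Marco and Siglec1 had no count in any library, and the whole list of 10 had 66 counts in 1771518. That list had a median of 13.5 CPM over the 36 libraries. It reached 581 CPM in 1 wild-type and 572 CPM in 1 heterozygous MPP2 library. The part of these cells in the class II levels was not tested.

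**Figure D2:**
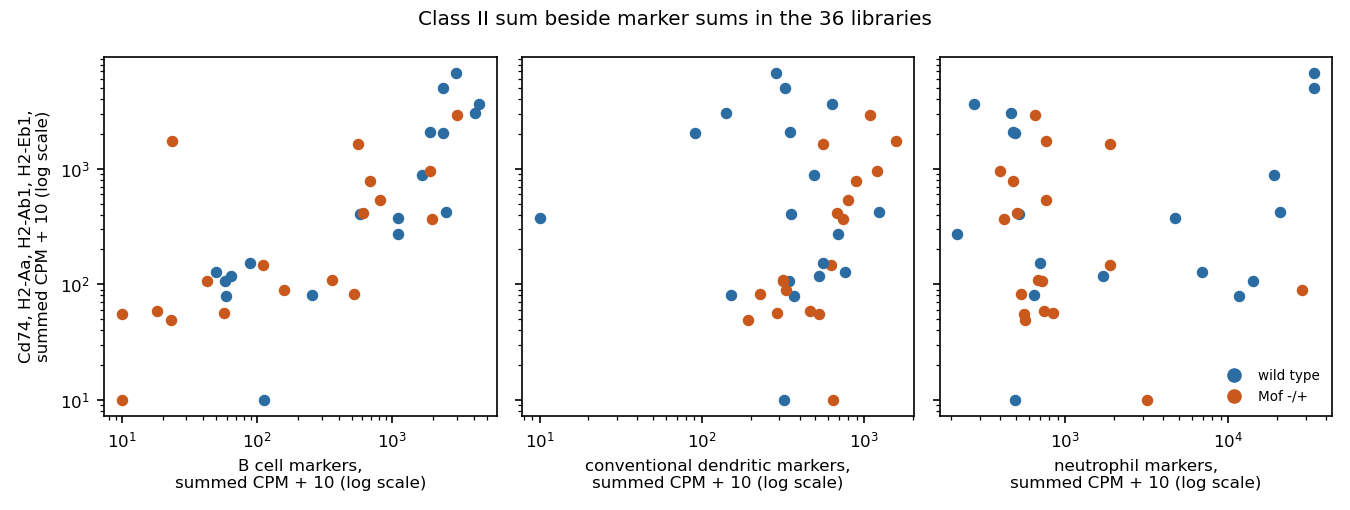
Summed CPM of Cd74, H2-Aa, H2-Ab1 and H2-Eb1 (vertical axis) against the summed CPM of B cell, conventional dendritic and neutrophil markers (horizontal axes), all plus 10 and on log scales, with 1 point per library. The B cell panel has 1 orange point at 13.3 CPM of B cell markers with 1718 CPM of class II, heterozygous MEP replicate 2.

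Ctss, which trims the invariant chain, was counted in every MPP4 library and in most MPP2 and MPP3 libraries. In wild-type MPP4 it stood at 104, 341 and 665 CPM and in heterozygous MPP4 at 67.5, 413 and 415 CPM. In MPP2 the values were 387, 0 and 354 CPM in wild type and 327, 364 and 0 CPM in heterozygous cells, with 1 library of each genotype at 0 counts. Wild-type MPP3 held 685, 0 and 48.0 CPM, the first from 5 counts, and heterozygous MPP3 102, 37.5 and 27.9 CPM. In CMP and MEP no library exceeded 57.1 CPM. Of wild-type HSC libraries, replicate 3 alone had Ctss, with 6 counts.

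Whether the class II genes differ between populations was asked within each genotype with limma on log2(value + 1), adjusted by Benjamini-Hochberg over all genes (called at an adjusted p under 0.05). All 10 genes passed the filter on low values. Across wild-type populations H2-Ab1 differed (adjusted p = 0.0176), and so did Igsf6 and Ccl4, described below. That is 3 of 10 genes, where 3.77% of all 6501 genes were called. Because the 10 genes were chosen with earlier results of these data known, such shares here and below only describe them. H2-Ab1 and H2-Eb1 were lower in wild-type MPP3 than in the mean of the other 5 populations, by -2.88 (SE 0.73, adjusted p = 0.0159) and -2.49 log2 (SE 0.77, adjusted p = 0.0463) in limma. The third chain gene, H2-Aa, with its 4 counts there, stood at 0.19 log2 (SE 0.90, adjusted p = 0.912). The values of H2-Ab1 and H2-Eb1 depend on the pseudocount, since neither gene had a count in the 30907 counts of the 3 wild-type MPP3 libraries, which allows up to 97.1 CPM over the group. The other wild-type populations pooled to 198 CPM of H2-Ab1 and 166 CPM of H2-Eb1. Against these pooled levels MPP3 was at least 2.04-fold and 1.71-fold lower. Not every population lay above the limit. Wild-type CMP libraries held at most 65.4 CPM of H2-Ab1 and 52.8 CPM of H2-Eb1. In wild-type MEP replicates 1 and 3 the 3 chains together held 52.8 and 68.4 CPM, and wild-type HSC replicate 1 had no count of them. MPP3 is therefore not shown to be lower than CMP or these libraries. Without wild-type MPP3 replicate 3 the limit rises to 298 CPM, above both pooled levels, and neither bound remains. The median of all genes in this contrast was -0.54, and 4 of 10 genes were called against 4.74% of all genes. Without the shallow libraries, which leaves 1 wild-type MPP3 library, neither gene was called by limma (adjusted p = 0.322 and 0.418), and without wild-type MPP3 replicate 2 alone they gave 0.0936 and 0.169. Leaving out single libraries, 36 in turn, ended the call of H2-Eb1 17 times, and neither gene was called by edgeR (adjusted p = 0.717 for both) or DESeq2. Neutrophil markers summed to 20674, 4703 and 14108 CPM in these MPP3 libraries, and limma called 4 of that list (S100a8, S100a9, Retnlg and Mmp8) higher there. Leaving out the 7 libraries rich in neutrophil markers kept only replicate 2 of wild-type MPP3, with 2764 counts, and neither gene was called. A single count is worth 362 CPM in that library, so this fit cannot decide whether the 2 genes are lower there.

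In heterozygous cells limma called none of the 4 class II genes nor Ctss in any population. Across heterozygous populations it called 1 of the 10 genes, Ccl4, where 0.754% of all genes were called. By edgeR's quasi-likelihood test on the recovered counts 6 of 10 were called across heterozygous populations (5.57% of 7667 genes) and 7 of 10 across wild-type ones (5.1%), and by DESeq2 1 (Ccl4, 3.86% of all genes) and 2 (Ccl4 and Ctss, 7.33%). In heterozygous MPP4 edgeR called 5 genes higher: Cd74 (log2 2.92, adjusted p = 0.00475), H2-Eb1 (2.84, 0.00182), Lyz2 (2.80, 1.45e-04), Ctss (2.45, 6.30e-04) and H2-Ab1 (1.97, 0.0241), against 4.25% of all genes. In wild-type MPP4 it called Ctss (2.63, adjusted p = 0.0105), H2-Eb1 (3.07, 0.0178) and H2-Aa (2.42, 0.0427), against 0.756%. With edgeR's default filter 3 of 8 tested genes were called in heterozygous MPP4 and 0 of 8 in wild-type MPP4. The share of all genes called with that filter is not given here, so these 2 counts cannot be judged against it. DESeq2 called 0 of 10 in MPP4 of either genotype. In limma 9 of 10 genes stood above 0 in MPP4 of each genotype without a call, with medians of 0.98 in wild type and 1.91 in heterozygous cells against 0.05 and 0.08 over all genes. An unadjusted p under 0.05 was given to 3 genes in wild-type MPP4, where 7.63% of all genes had one, and to 6 in heterozygous MPP4 (5.95%). At the low end edgeR called H2-Aa in wild-type CMP (-3.36 log2, adjusted p = 0.0498, 3.57% of all genes), Cd74 in heterozygous CMP (adjusted p = 0.0337, 0.548%) and Ccr2 in wild-type MEP (adjusted p = 0.0232, 4.08%), the last 2 with 0 counts there. With edgeR's default filter none of the tested genes was called in these groups. In wild-type MEP DESeq2 called both Ccr2 and Ccl4 lower (-5.78 and -3.81 log2, adjusted p = 0.044 each), against 5.98% of all genes. B cell markers were highest by median in MPP4 among heterozygous groups, at 1965 CPM, and Cd79a, Cd79b, Ebf1 and Blnk of that list were called higher there by limma. The shares of all genes that limma called were 0.0461% for wild-type HSC, 1.22% for MPP2, 0.123% for MPP4, 0.169% for CMP and 0.0769% for MEP. In heterozygous cells they were 1.75% for HSC, 0% for MPP2, 0.277% for MPP3, 0.246% for MPP4, 0.0615% for CMP and 0.0769% for MEP. Outside MPP3 limma called none of the 10 genes in these contrasts, with an unadjusted p under 0.05 for 2 of them in wild-type HSC (6.74% of all genes), 4 in MPP2 (19.3%), 3 in CMP (7.15%) and 2 in MEP (7.61%). In the heterozygous groups such a p was given to 0 of them in HSC (19.6% of all genes), 2 in MPP2 (4.26%), 2 in CMP (2.05%) and 1 in MEP (3.15%). In heterozygous HSC all 10 values were below 0 (median -1.10 against -0.57 over all genes). Replicate 2 of that group, with 1577 counts, held 0 counts of the 10 genes, and a single count is worth 634 CPM there.

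The other genes of class II presentation were described from lists of chains, loading factors and regulators. In wild-type MPP3 none of the 8 tested loading genes was called (median -0.82 against -0.54 over all genes), and 1 of 6 regulators was called, Nfya, a subunit of NF-Y, at -1.85 log2 (SE 0.56, limma adjusted p = 0.0418). Nfya had 0 counts in wild-type MPP3 and pooled to between 73.9 and 88.3 CPM in the other wild-type populations, under the 97.1 CPM that a count of 0 allows. Without the shallow libraries it stood at -1.87, about the same value, with an adjusted p = 0.255. In heterozygous MPP4 none of the 8 loading genes was called by limma (median 1.20 against 0.08 over all genes). H2-Ob, a chain of the H2-DM inhibitor H2-O, stood at 2.26 log2 there (SE 0.62, adjusted p = 0.114) and at 1.94 in wild-type MPP4 (SE 0.62, adjusted p = 0.392). Ifi30, the endosomal thiol reductase, stood at 1.51 (adjusted p = 0.717) and the protease gene Ctsb at 0.90 (adjusted p = 0.999) in heterozygous MPP4. H2-DMa had 139 counts in 31 libraries, against 434 counts in 26 libraries for Cd74. Genes named here for a count alone, such as Ciita, Csf1 or Ccr1, were chosen after their values were seen. Ciita, the master regulator of class II genes, had 17 counts in 10 libraries, 5 of them in wild-type HSC replicate 3 and 3 in heterozygous MEP replicate 2. Pooled levels of Creb1, Nfyb, Nfyc and Rfx5, which bind class II promoters, were 99.9, 68.9, 48.5 and 44.6 CPM.

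The monocyte genes Lyz2 and Ccr2 reached their highest levels in single libraries of the MPP populations. Lyz2 stood at 1460, 676 and 24.1 CPM in heterozygous MPP2 and at 194, 0 and 797 CPM in wild-type MPP2. In MPP4 it stood at 8.43, 951 and 1341 CPM in heterozygous and 0, 210 and 333 CPM in wild-type cells. Wild-type MPP3 held 1369, 0 and 96.0 CPM and heterozygous MPP3 289, 62.6 and 41.9 CPM. No group of MPP cells had all 3 libraries high. In wild-type HSC Lyz2 had 0 counts in 94749, which allows up to 31.7 CPM, and heterozygous MEP had 0, 2 and 26 counts, the last in a library with 28200 CPM of neutrophil markers.

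Lyz1, the near-identical neighbour of Lyz2 on chromosome 10, gave 1141 counts against 333 for Lyz2. It was also the gene most like Lyz2 over the 12 groups (rho 0.951), followed by Arpc5, Bcl11a, Cybb and Tapbp. How the authors split reads between the 2 lysozyme genes is not given in the sources used here, so the Lyz2 values are uncertain to that extent. Lyz1 counts were 152, 27 and 3 in heterozygous MPP2 and 44, 0 and 5 in wild-type MPP3, the same order as those of Lyz2 in both groups. The promoter window of Lyz1 holds the letters GGAAGT at the same distance from its start as that of Lyz2.

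Ccr2 stood at 1917, 0 and 96.0 CPM in wild-type MPP3, where replicate 1 held 14 of the 16 counts. In MPP2 it reached 387, 0 and 1062 CPM in wild type and 881, 312 and 0 CPM in heterozygous cells. The heterozygous MPP4 libraries all had Ccr2, at 118, 467 and 366 CPM, and the wild-type ones stood at 26.1, 288 and 111 CPM. In wild-type MEP there was no count in 194149 (up to 15.5 CPM), and in heterozygous MEP replicate 2 alone had it, with 16 counts. The ligands Ccl2, Ccl7 and Ccl12 had no count in any library.

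Csf1r was sparse, with 54 counts over 19 libraries. Its highest levels were 274 CPM in wild-type MPP3 replicate 1, from 2 counts, and 176 CPM in heterozygous MPP2 replicate 1, from 7 counts. In heterozygous MEP it was counted 7, 1 and 1 times (90.7, 13.3 and 11.4 CPM) and in wild-type MEP not at all, in 194149 counts. Pooled levels in the other groups ran from 0 in wild-type HSC to 79.7 CPM in heterozygous MPP2. The genes whose pooled level was most like that of Csf1r over the 12 groups were Ccz1 (rho 0.928), Cnot1, Hmha1, Myo1f and Lyz1, a description that rests on few counts. Its ligands Csf1 and Il34 had 14 and 0 counts in all.

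Igsf6 was counted 55 times. In wild-type MPP3 it gave 3, 1 and 1 counts, or 411, 362 and 48.0 CPM, and limma called it higher there by 2.65 log2 (SE 0.58, adjusted p = 0.00563). Heterozygous MPP3 gave 3, 0 and 0 counts (51.1, 0 and 0 CPM) and was not called. The call in wild-type MPP3 rests on 5 counts: without the shallow libraries the value was 1.01 (adjusted p = 0.509), without replicate 1 it gave adjusted p = 0.0531 and without replicate 2 0.0936. In CMP Igsf6 was counted in 5 of 6 libraries, at 0, 52.8 and 52.3 CPM in wild type and 81.1, 11.2 and 97.0 CPM in heterozygous cells. Neither genotype had a count in HSC.

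Monocyte markers other than these 4 genes (Ly6c2, F13a1, Cx3cr1, Ms4a6c and others) varied with them in several groups. They summed to 3286 CPM in wild-type MPP3 replicate 1 (Lyz2, Ccr2, Csf1r and Igsf6 together 3970 CPM), where stem and progenitor markers were at 0, neutrophil markers at 20674 CPM and B cell markers at 2464 CPM. In heterozygous MPP2 they summed to 1661, 1717 and 121 CPM, beside 2542, 1145 and 24.1 CPM of the 4 genes, and stem and progenitor markers stood at 1485, 1249 and 2412 CPM. In heterozygous MPP4 the sums were 101, 1472 and 3414 CPM beside 143, 1615 and 1878 CPM. Over all 36 libraries the monocyte sum ran from 0 to 3414 CPM with a median of 291. The part of such cells in the levels of Lyz2, Ccr2, Csf1r and Igsf6 was not tested.

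**Figure D3:**
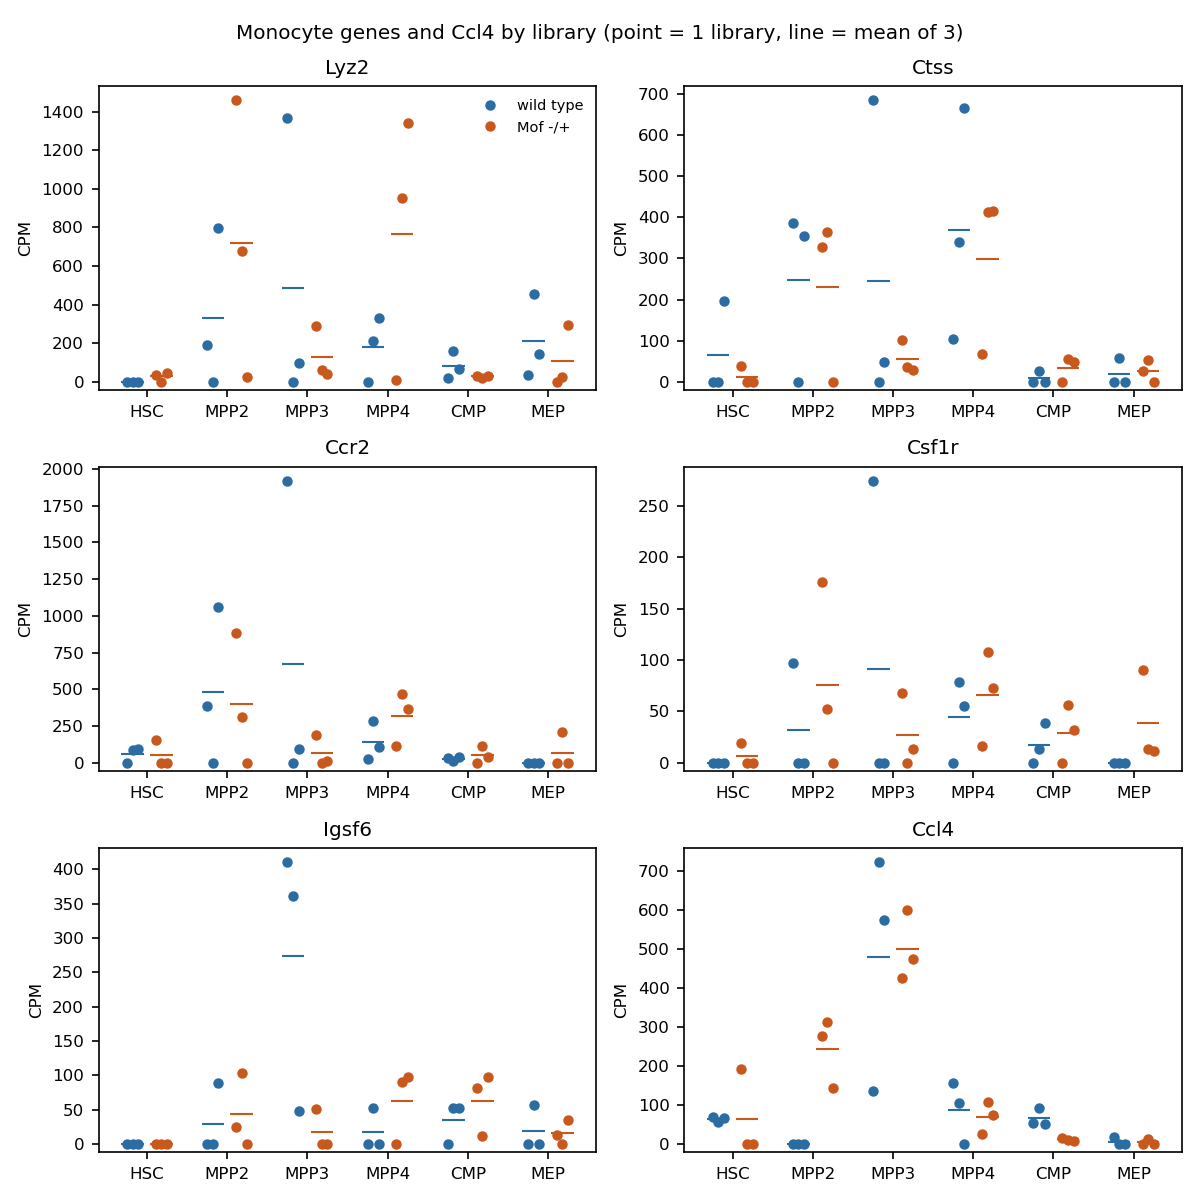
Levels of Lyz2, Ctss, Ccr2, Csf1r, Igsf6 and Ccl4 in CPM (vertical axes, each on its own scale) by population, with 1 point per library, wild type in blue and Mof -/+ in orange, and a line at the mean of 3. Ccl4 is the gene whose 3 heterozygous MPP3 libraries, at 425 to 600 CPM, lie above each of the other heterozygous libraries.

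Ccl4 was high in MPP3 of both genotypes. It stood at 137, 724 and 576 CPM in wild-type MPP3, from 1, 2 and 12 counts, and at 425, 600 and 475 CPM in heterozygous MPP3, from 25, 48 and 34 counts. The means were 479 ± 305 and 500.3 ± 90.2 CPM (SD, n = 3 each). The highest heterozygous library of any other population was MPP2 replicate 2 at 312 CPM, so the heterozygous MPP3 libraries lay above all others of their genotype. In wild type, MPP3 replicate 1 with its single count lay under MPP4 replicate 1 at 157 CPM. HSC stood at 68.8, 57.0 and 65.4 CPM in wild type, MPP4 at 157, 105 and 0 CPM and CMP at 53.9, 92.4 and 52.3 CPM, ranges that overlap each other. MEP had 1 count in each genotype, in 194149 wild-type and 239974 heterozygous counts. Wild-type MPP2 had none in 33965, which allows up to 88.3 CPM, so its place in the order is not known.

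Limma placed Ccl4 higher in MPP3 than in the mean of the other populations by 2.95 log2 in wild type (SE 0.57, adjusted p = 0.00267) and by 3.01 log2 in heterozygous cells (SE 0.57, adjusted p = 0.00206). The contrasts use different libraries. On recovered counts edgeR gave 3.63 (adjusted p = 0.0122, 0.0261% of all genes called) and 3.60 (2.49e-12, 1.42%), and DESeq2 3.74 (0.00145, 0.0261%) and 3.65 (1.10e-07, 0.767%). Without the shallow libraries limma gave 3.19 (adjusted p = 0.0388) in wild type, from the 1 MPP3 library left, which is assumed to vary like the other groups, and 2.90 (2.45e-04) in heterozygous cells, whose MPP3 libraries all remain. Without wild-type MPP3 replicate 2 the wild-type value was 2.53 (adjusted p = 0.0525), and without heterozygous MPP3 replicate 2 the heterozygous one was 2.87 (adjusted p = 0.0917). By edgeR Ccl4 was also called in heterozygous MPP2 (higher, 2.09 log2, adjusted p = 0.0259) together with Lyz2 (2.65, 0.00672), against 0.352% of all genes, and lower in heterozygous MEP (-3.88, 0.00439), against 1.29%. Monocyte markers summed to 630, 75.1 and 112 CPM in the 3 heterozygous MPP3 libraries, beside 425, 600 and 475 CPM of Ccl4. The part of monocytes or other cells in the level of Ccl4 was not tested.

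Of 7 tested chemokines and receptors limma called only Ccl4 in MPP3 of each genotype (medians 1.20 in wild type and 0.29 in heterozygous cells, against -0.54 and 0.14 over all genes). Ccl3, the chemokine MIP-1 alpha, stood at 1.44 log2 in wild-type (SE 0.64, adjusted p = 0.142) and 1.06 in heterozygous MPP3 (SE 0.64, adjusted p = 0.999). In heterozygous MPP2 it gave 17, 8 and 0 counts. Ccl9, a chemokine of myeloid cells, had no count in any HSC library and was called lower in heterozygous HSC by limma (-2.35 log2, SE 0.63, adjusted p = 0.0335), a call lost without the shallow libraries (adjusted p = 0.148) while the value stayed at -2.35. Ccl5, Ccl6 and Cx3cr1 were called in no contrast. The receptor gene Ccr1 had 9 counts over all libraries.

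Of 4 tested genes of colony-stimulating factors and their receptors, limma called 2 higher in wild-type MPP3, against 4.74% of all genes. Csf2rb, the shared beta chain of the GM-CSF receptor, stood at 2.17 log2 (adjusted p = 0.0231). Csf3r, the G-CSF receptor, stood at 1.81 log2 (adjusted p = 0.05 after rounding up). Both were highest in replicate 2, a library of 2764 counts, at 724 CPM from 2 counts each. Without the shallow libraries they stood at -0.14 (adjusted p = 0.926) and 0.41 (adjusted p = 0.724). Csf2ra, the alpha chain of the GM-CSF receptor, was called in no contrast, and Csf2 had no count. Of 18 tested monocyte and macrophage genes 1 was called in wild-type MPP3, Igsf6, and 1 in heterozygous MPP3, Nr4a1. Nr4a1, a nuclear receptor induced early after stimulation and needed for Ly6C-low monocytes, stood at 851, 1551 and 1453 CPM in heterozygous MPP3 and at 274, 0 and 192 CPM in wild-type MPP3. Limma called it higher in heterozygous MPP3 by 4.07 log2 (SE 0.71, adjusted p = 8.98e-04) and, between genotypes in MPP3, by 3.24 log2 (SE 0.76, adjusted p = 0.0339). The genotype call was lost without the shallow libraries (2.51 log2, adjusted p = 0.578) and the call in heterozygous MPP3 was not (3.79, adjusted p = 2.72e-06). Ly6c2, Cybb and Fcer1g were called in no contrast.

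Of 7 tested monocyte transcription factors, Irf8, which directs monocyte and dendritic fates, was called higher in wild-type MPP2 by limma (2.78 log2, SE 0.75, adjusted p = 0.0446), with 1258, 729 and 2656 CPM. All 3 of these libraries are shallow. Cebpa, a factor of myeloid commitment, was called higher in wild-type CMP (2.10 log2, SE 0.47, adjusted p = 0.0176), with 108, 79.2 and 131 CPM, and stood at 1.77 (adjusted p = 0.0771) without the shallow libraries. Zeb2, Klf4, Cebpb and the PU.1 gene (Sfpi1 in the tables) were called in no contrast.

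Between genotypes limma, on the values as deposited, called none of the 10 genes, neither on average over the 6 populations nor within any of them. On average it called 0.0776% of 6444 genes, in HSC 0.0155%, in MPP2 0.0776%, in MPP3 0.31% and in MPP4, CMP and MEP 0.031% each. None of the 10 had an unadjusted p under 0.05 on average, where 10.7% of all genes had one. Within populations 2 of them did in MPP2 (7.77% of all genes), 1 each in MPP3 (16.1%), MEP (5.28%) and CMP (3.72%), and 0 in HSC (6.49%) and MPP4 (7.45%). By edgeR (1.08% of all genes called on average) and DESeq2 none was called in any of these comparisons either. The average differences of the 4 class II genes, heterozygous minus wild type, were -0.67 (SE 0.48) for Cd74, -0.80 (SE 0.44) for H2-Aa, -0.51 (SE 0.34) for H2-Ab1 and -0.66 log2 (SE 0.38) for H2-Eb1, where the median of all genes was 0.12 (0.25 with TMM and 0.40 in edgeR). Without the libraries rich in neutrophil markers, which left 1 library each in wild-type MPP3 and MEP, Cd74 stood at 0.041, its sign turned. H2-Aa, H2-Ab1 and H2-Eb1 stayed below 0 in each alternative. The adjusted p of the 4 averages ran from 0.513 to 0.666. Csf1r stood at 0.47 (SE 0.27, adjusted p = 0.538), Ccl4 at 0.17 (SE 0.25), Ccr2 at 0.14 (SE 0.40), Lyz2 at 0.09 (SE 0.43), Ctss at 0.04 (SE 0.34) and Igsf6 at 0.03 (SE 0.28).

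**Figure D4:**
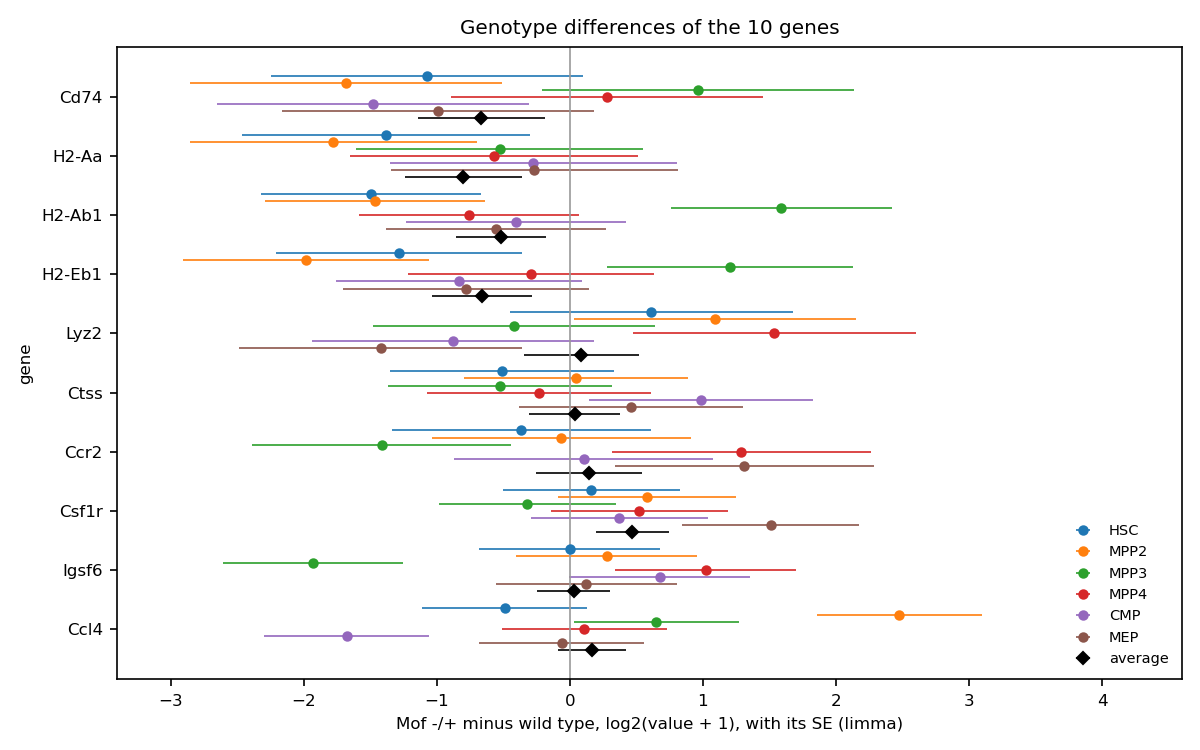
Difference between Mof -/+ and wild-type libraries on the log2(value + 1) scale (horizontal axis) for each gene (vertical axis), by population in colour and averaged over populations as black diamonds, with standard errors from limma. The diamonds of the 4 class II genes lie between -0.80 and -0.51 and those of the other 6 genes between 0.03 and 0.47.

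Within populations, the genotypes did not overlap for 8 of 60 pairs of gene and population, in CPM, the same share as the 13.3% of pairs over all 6444 genes. Ccl4 had 0, 0 and 0 counts in wild-type MPP2, in 33965, and 11, 6 and 6 in heterozygous MPP2 (277, 312 and 145 CPM). The pooled heterozygous level of 229 CPM was at least 2.59-fold higher than the 88.3 CPM that the wild-type 0 allows, and at least 1.65-fold without wild-type MPP2 replicate 2. Limma gave 2.47 log2 (SE 0.62, adjusted p = 0.128) on the deposited scale. Scaled to a common total it gave 3.41 (adjusted p = 0.0139), and with TMM 3.50 (adjusted p = 0.0056), where the median of all genes moved from 0.21 to 0.28 and 0.56. Monocyte markers summed to 1839, 81.0 and 2922 CPM in wild-type MPP2 and to 1661, 1717 and 121 CPM in heterozygous MPP2. Their part in the difference of Ccl4 was not tested. In CMP the order was the opposite: wild-type libraries held 53.9, 92.4 and 52.3 CPM and heterozygous ones 16.2, 11.2 and 8.08 CPM (-1.68 log2, SE 0.62, adjusted p = 1). The interaction of genotype and population was called by limma for none of the 10 genes (0.031% of all genes), with Ccl4 at an adjusted p = 0.162 and alone under an unadjusted p of 0.05, as were 8.74% of all genes.

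Cd74, H2-Ab1, H2-Eb1 and Csf1r made up the other pairs without overlap. H2-Eb1 stood at 194, 405 and 354 CPM in wild-type MPP2 against 0, 156 and 0 CPM in heterozygous MPP2 (-1.98 log2, SE 0.92, limma adjusted p = 0.585), and H2-Ab1 at 194, 324 and 443 CPM against 151, 104 and 0 CPM (-1.47, SE 0.83, adjusted p = 0.685). B cell markers summed to 1646, 2350 and 4338 CPM in those wild-type libraries and to 805, 676 and 507 CPM in the heterozygous ones, and their part in the difference was not tested. In MPP3 H2-Eb1 had 0 counts in wild type and 8, 2 and 2 in heterozygous cells, a pooled 57.1 CPM, less than the 97.1 CPM that the wild-type 0 allows. In CMP the 2 class II genes were near the limit of 1 count: Cd74 had 1, 2 and 2 wild-type counts against none, and H2-Eb1 1, 4 and 2 against 1, 1 and 1. Csf1r in MEP, 0 against 9 counts, was at least 2.43-fold higher in heterozygous libraries over the pooled group (1.51 log2, SE 0.67, adjusted p = 0.883). Of the 9 counts 7 came from heterozygous MEP replicate 1, and without it the pooled level of 12.3 CPM lies under the 15.5 CPM that the wild-type 0 allows, so that no bound remains; without wild-type MEP replicate 3 the bound is 1.15-fold. Igsf6 in MPP3 had the lowest unadjusted p of the remaining pairs (-1.93 log2, SE 0.68, adjusted p = 0.151), and without wild-type MPP3 replicate 3 it was called (-2.54 log2, adjusted p = 0.0346).

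By annotation (GENCODE M21, mm10, the build of the submitters' processing notes) all 10 genes are protein-coding. H2-Ab1 (34257689 to 34269419, plus strand), H2-Aa (34282744 to 34287823, minus) and H2-Eb1 (34305867 to 34316674, plus) lie together on chromosome 17. Lyz2 lies on chromosome 10 (117277331 to 117282321, minus) beside Lyz1 (117287797 to 117292868, minus). Ctss is on chromosome 3 (95526786 to 95556403, plus), Igsf6 on chromosome 7 (121064067 to 121074572, minus), Ccr2 on chromosome 9 (124101950 to 124113557, plus) and Ccl4 on chromosome 11 (83662584 to 83664683, plus). Cd74 (60803848 to 60812652, plus) and Csf1r (61100598 to 61132149, plus) are on chromosome 18. Igsf6 overlaps Mettl9, Csf1r overlaps Hmgxb3 and H2-Eb1 overlaps the antisense gene Gm20513, each on the other strand. Whether the authors counted by strand is not given in the sources used here.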

How the data were processed

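Bulk CEL-Seq2 libraries (tags at the 3' end of messenger RNA, so a gene's length does not scale its count) were deposited as 12 tables of signal: per the values, the authors divided the counts by 1 size factor per library, shared in scale by the 6 libraries of a population. The submitters' processing notes name the build mm10 and the aligner BWA 0.6.2-r126. Counter, annotation and the treatment of molecular identifiers were not found in the sources used here. Whole counts were recovered (100% of values within 0.01 counts), and 92 spike-ins were left out. Spike-ins gave 0 counts in each heterozygous MEP library and 13 to 4554 in every other library, a difference whose cause was not tested. Names of 92 lines are missing for wild-type MEP, so its genes were named by position from the wild-type HSC table.

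Limma 3.58.1 (R 4.3.3) was run with an intensity trend on log2(value + 1), over genes with a mean of at least 1 and all 36 libraries, with 1 coefficient per group. Fold changes on that scale understate low genes. Populations were compared on counts scaled to the median total of 41227, genotypes on deposited values. Alternatives were edgeR 4.0.16 and DESeq2 1.42.0 on recovered counts, other scalings, filters and pseudocounts, and leaving out libraries. The scripts were tested on simulated data. A count of 0 is bounded by 3 counts over the group's total, and such limits cover counting error only. Every replicate pair differed by more than sampling noise. The design named all 10 genes and, per list, called genes plus the 4 others of highest pooled CPM; members and lists were chosen with earlier results of these data known.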

Additional observations from a re-analysis of the deposited data

Results flagged for a closer look

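For H2-Eb1 and Ccl4 there was more than 1 population in which the libraries of the genotypes did not overlap in CPM, and their order was not the same in each; these contrasts between populations were not tested one by one, and limma's interaction test called neither gene (adjusted p = 0.729 and 0.162). For H2-Eb1 the heterozygous minus wild-type difference in mean CPM was 63.0 in MPP3, -266 in MPP2 and -20.5 in CMP. The MPP3 value has no established direction, since the pooled heterozygous level of 57.1 CPM lies under the 97.1 CPM that the wild-type 0 allows. For Ccl4 the heterozygous minus wild-type difference was 245 in MPP2 and -54.4 in CMP. The wild-type MPP2 group holds 33965 counts in all, so a count of 0 in MPP2 allows 88.3 CPM.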

How the results depend on the processing

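The counts of called genes in this section stand without the share of all genes called in the same setting, so they only describe the 10 genes. Beyond leaving out 1 library, the number of genes called across wild-type populations (3) was 1 with no filter, with a mean of at least 5 and with wild-type libraries alone. It was 7 by edgeR (30 counts or more). Single wild-type populations gave 4 calls, 2 with a pseudocount of 5, with no filter and with a mean of at least 5, 6 by edgeR (30 counts or more) and 1 with its default filter. Across heterozygous populations the 1 call became 6 by edgeR (30 counts or more) and 2 with its default filter. Single heterozygous populations gave 1 call, 10 and 6 by edgeR with these 2 filters, and 2 without the shallow libraries. Genotype within a population gave 0 calls, and 1 (Ccl4 in MPP2) with TMM or a common total. The interaction gave 0, and 1 (Ccl4) with TMM or without the 7 libraries rich in neutrophil markers, an alternative chosen after seeing the data. Leaving out each library in turn gave 2 to 5, 1 to 5, 1 to 1, 0 to 2, 0 to 0, 0 to 1 and 0 to 1 calls in the order of the comparisons above, with genotype on average before genotype within a population. The 5 across wild-type populations came without wild-type HSC replicate 3 or MEP replicate 2, the 1 without wild-type MPP3 replicate 2, the 0 without heterozygous MPP3 replicate 2 and the 2 without heterozygous HSC replicate 1. The single genotype calls came without heterozygous HSC replicate 2 (Ccl4 in MPP2), wild-type MPP3 replicate 3 (Igsf6 in MPP3) and heterozygous HSC replicate 1 (Ccl4, interaction).

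Genotype averages that changed sign, none of them called, were Cd74 (0.041) without the neutrophil-rich libraries; Ctss with a pseudocount of 5 (-0.042), a common total (-0.070), edgeR's default filter (-0.087) and DESeq2 (-0.19); Igsf6 with a pseudocount of 5 (-0.0042), a common total (-0.12) and without the neutrophil-rich libraries (-0.035); and Ccl4 without the shallow (-0.38) or the neutrophil-rich libraries (-0.13). With 1 library left out the averages ran from -0.12 to 0.38 for Lyz2, -0.12 to 0.23 for Ctss, -0.076 to 0.40 for Ccr2 and -0.10 to 0.16 for Igsf6. The cause was not tested. Depth limits every value from wild-type MPP2, wild-type MPP3 and heterozygous HSC replicate 2. No paired analysis was possible because the columns carry running barcodes and no replicate number shared between groups.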
